A study of Arabidopsis thaliana with 24 samples.

Results

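PYR1 and the PYL proteins are the soluble receptors of abscisic acid (ABA), the plant hormone of drought, seed dormancy and stress. A receptor that holds ABA binds clade A type 2C protein phosphatases (PP2Cs) and blocks them, which frees the SnRK2 kinases to phosphorylate their targets, among them the bZIP factors of the ABF and ABI5 group. The family has 3 subfamilies: PYR1 with PYL1 to PYL3, which can form dimers in the absence of the hormone, PYL4 to PYL6, and PYL7 to PYL9, the members after PYL3 being mostly monomeric and able to act on PP2Cs at low hormone levels. The members described here are the 10 genes PYR1 and PYL1 to PYL9, taken by their locus numbers from a count table of 32833 loci. They were chosen with earlier results of these data known.

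RNA was measured in whole seedlings of Arabidopsis thaliana Col-0 aged 4 days and grown in liquid medium with 1% sucrose. The 24 libraries form 8 groups of 3: agb1 and wild type (WT), each given 40 µM NAE 18:3 or 0.2% DMSO for 3 h or 1 h. NAE 18:3 is a lipid of the N-acylethanolamine class, DMSO is its solvent, and AGB1 is the gene for the G beta subunit of the plant's heterotrimeric G protein complex. The labels name neither the agb1 allele nor the source of the replicates, so p-values measure the spread between these libraries, which may be technical, and a single mutant line stands for the genotype. Whole seedlings mix roots, hypocotyl and cotyledons: in such bulk samples fewer cells of a type and less RNA per cell cannot be told apart.

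The shallowest library held 18.0 M counts and the deepest 61.9 M. The genotype labels are taken as given. The AGB1 transcript (AT4G34460) was present under both, so its presence does not check them. At 3 h it was at 27.0, 24 and 33.7 CPM (counts per M of the TMM-adjusted total) in the DMSO libraries labelled agb1, against 51.0, 51.7 and 52.4 CPM in those labelled WT. At 1 h these were 39.4, 47.9 and 46.4 CPM in agb1 and 50.2, 47.7 and 52.4 CPM in WT, and the groups overlapped. Under NAE 18:3 it was at 35.4, 34.7 and 38.4 CPM in agb1 and 101, 120 and 113 CPM in WT at 3 h, and at 39.3, 50.2 and 43.2 CPM in agb1 and 58.9, 56.2 and 55.1 CPM in WT at 1 h. Markers of root and of green tissue were detected in every group, and the 4 seed storage markers summed to at most 1.99 CPM in any library.

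All 10 genes lie on the nuclear chromosomes of the TAIR10.1 assembly. In the dimer-forming subfamily, PYR1 (AT4G17870) is at chr4:9928587-9929875, PYL1 (AT5G46790) at chr5:18983540-18984923, PYL2 (AT2G26040) at chr2:11094258-11095542 and PYL3 (AT1G73000) at chr1:27462983-27463968. PYL4 (AT2G38310) is at chr2:16049918-16051356, PYL5 (AT5G05440) at chr5:1608988-1610527 and PYL6 (AT2G40330) at chr2:16844588-16846194. PYL7 (AT4G01026) is at chr4:446978-448511, PYL8 (AT5G53160) at chr5:21560601-21562709 and PYL9 (AT1G01360) at chr1:141870-143261. The coding sequence of PYL7, PYL8 and PYL9 spans 3 exons, and that of the other 7 genes a single one. The longest run of identical transcript bases between any 2 members was 32, between PYL7 and PYL9, whose coding sequences are 72.2% identical. That run is shorter than a 75-bp read. PYL7 is the only member that overlaps other loci, both on the opposite strand: AT4G01030, a protein-coding gene, over 571 bases or 37.2% of PYL7, and the long non-coding AT4G03845 over 269 bases.

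The bases before the start of transcription are shown for the most abundant member (PYL4) and, around its matches, for the member that rose most (PYL7). Capitals mark matches to the motifs searched, on either strand: the ABA-responsive element core ACGTG, the G-box CACGTG, which contains it, and the W-box core TTGAC. All 3 stretches are on the plus strand of TAIR10.1, from RefSeq, at chr2:16049668-16049917, chr4:446901-446930 and chr4:446948-446977.
PYL4 upstream: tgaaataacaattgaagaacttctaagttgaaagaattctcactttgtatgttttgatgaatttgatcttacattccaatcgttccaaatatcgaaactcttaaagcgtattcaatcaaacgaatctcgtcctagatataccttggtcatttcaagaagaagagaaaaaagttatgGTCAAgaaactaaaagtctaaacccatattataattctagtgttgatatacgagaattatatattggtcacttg
PYL7 G-box stretch: atatacaCACGTGcttaaaGTCAAcagcta
PYL7 start stretch: acaaaccagttaaactaagaCACGTaatct

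In the 250 bases before the start, the ACGTG core was present in PYL3 and PYL7 among PYL1 to PYL9, and in 22.9% of 27443 protein-coding promoters of that length. PYL7 alone among PYL1 to PYL9 held the G-box, which 6.49% of promoters hold. Its G-box begins 70 bases before the start and its W-box core 58 bases before it. Both lie inside the annotated span of the neighbouring gene AT4G01023. W-box cores were present in PYL4, PYL6 and PYL7 and in 44.9% of promoters. The as-1 core TGACG was present in PYL9 (18.6% of promoters), the heat shock core GAANNTTC in PYL5 (9.55%) and the drought-responsive core GCCGAC in none of PYL1 to PYL9 (2.56%). With the first 50 transcribed bases added, the ACGTG core was also found in PYL1 and the W-box core in PYL3. A match is a description of letters and not a binding site.

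Levels between genes were compared as CPM per kb of exon. PYL4 was the most abundant receptor transcript in each of the 24 libraries, at 92.0 to 309 CPM per kb (median 132). PYL8 (also named RCAR3), known for a role in lateral root growth, had the next highest median of 40.6, followed by PYL5 at 32.2, PYR1 at 27.8 and PYL1 at 22.6 CPM per kb. PYL6 was at 9.60, PYL9 (RCAR1) at 6.16, PYL2 at 2.99 and PYL7 at 2.1 CPM per kb. PYL3 was lowest in every library, with 1 to 26 counts and at most 0.626 CPM per kb. It did not pass the filter on low counts at 3 h, so 9 of the 10 members were tested there, and all 10 at 1 h.

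The order below PYL4 varied between groups and, in part, with the length used. In NAE-treated agb1 at 3 h the means ran PYL4 290, PYL5 38.2, PYL8 27.1, PYR1 23.0 and PYL1 19.4 CPM per kb, with no overlap between neighbours. In DMSO-treated WT at 3 h they ran PYL4 187, PYL1 38.2, PYR1 35.6 and PYL8 33.1 CPM per kb, where the libraries of PYL1, PYR1 and PYL8 overlapped from neighbour to neighbour. In DMSO-treated WT at 1 h PYL8 stood second at 60.6 CPM per kb, above PYR1 at 39.5, PYL5 at 32.7 and PYL1 at 25.9, with no overlap among them. PYL2 and PYL7 overlapped there, at 2.37 and 2.01 CPM per kb. Per kb of coding sequence the order of the first 5 in NAE-treated agb1 at 3 h was as above, without overlap. In DMSO-treated WT at 3 h PYL8 was then second at 107 CPM per kb of coding sequence, above PYR1 at 79.6 and PYL1 at 79.4. In DMSO-treated WT at 1 h PYL8 was again second, and PYR1 at 88.4 and PYL5 at 82.2 CPM per kb of coding sequence overlapped. The place of PYL8 in DMSO-treated WT at 3 h thus depended on the length used.

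**Figure D1:**
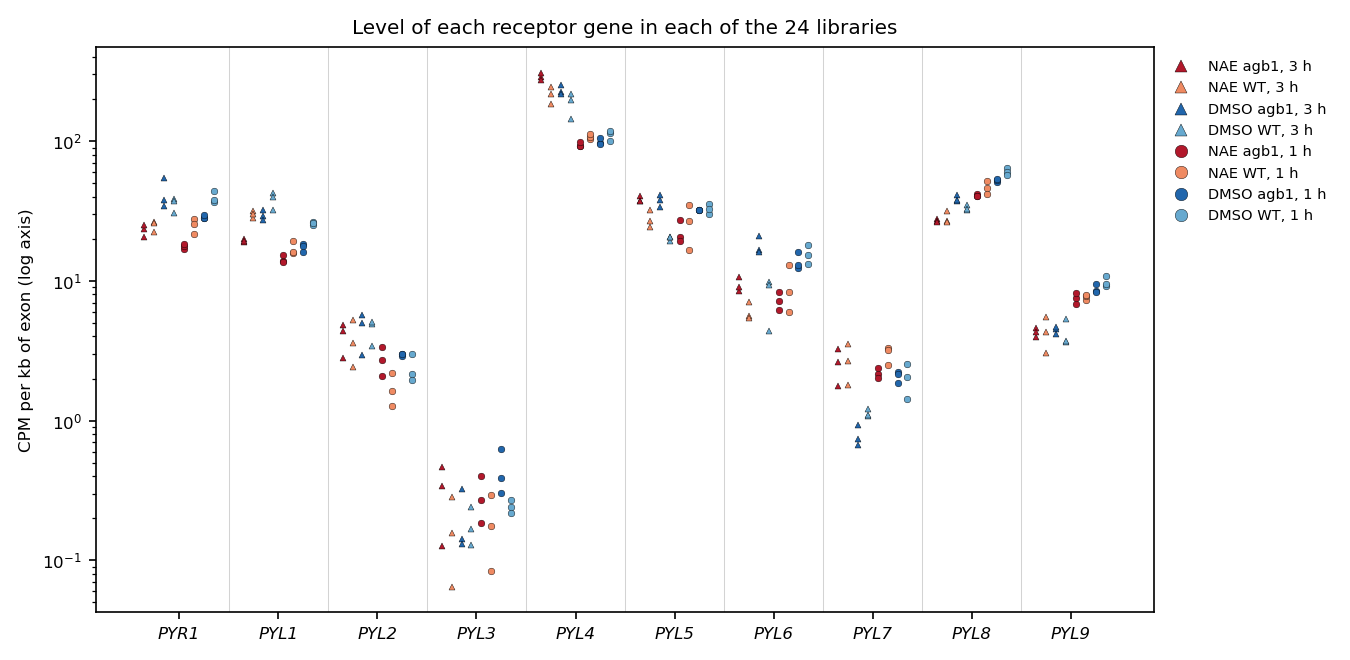
Level of each of the 10 receptor genes in CPM per kb of exon (log axis), one point per library, triangles for 3 h and circles for 1 h, colours for treatment and genotype. PYL4 lies above every other gene in all 24 libraries (92.0 to 309 CPM per kb) and PYL3 below every other (at most 0.626).

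After 1 h of NAE 18:3 in WT, the change among the receptors was mostly a fall. PYR1, PYL1, PYL8 and PYL9 fell and PYL7 rose, so 1 of the 10 members rose and 4 fell, where 12.4% of the 21255 genes tested rose and 8.02% fell. PYR1, the receptor through which the synthetic agonist pyrabactin was found to act, had 35.6, 33.2 and 27.8 CPM in NAE-treated WT, against 47.3, 56.7 and 48.8 CPM in DMSO-treated WT. Every NAE library was below every DMSO library, and PYR1 was 1.55-fold lower (log2 fold change -0.63, SE 0.09, adjusted p = 0.000142). PYL1, its closest relative in the subfamily, had 26.6, 22.0 and 22.1 CPM in NAE-treated WT, against 36.6, 34.8 and 36.1 CPM in DMSO-treated WT. These groups did not overlap either (log2 fold change -0.58, SE 0.08, adjusted p = 0.000140).

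In the same comparison PYL8 had 95, 83.9 and 76.4 CPM in NAE-treated WT, against 117, 111 and 104 CPM in DMSO-treated WT. All NAE libraries were below all DMSO libraries (log2 fold change -0.35, SE 0.07, adjusted p = 0.00413). PYL9 had 8.54, 9.13 and 9.40 CPM in NAE-treated WT, against 10.8, 12.8 and 11.3 CPM in DMSO-treated WT, with no overlap (log2 fold change -0.33, SE 0.10, adjusted p = 0.0335). This call was lost on leaving out any NAE-treated WT library or DMSO-treated WT replicate 2 or 3 (adjusted p 0.0536 to 0.112). It was also lost after thinning to the smallest library (adjusted p = 0.102). The same held in the fit of all 24 libraries (adjusted p = 0.135) and on the compared groups alone (adjusted p = 0.0507). PYL6, which can bind the jasmonate factor MYC2, had 20.9, 13.5 and 9.64 CPM in NAE-treated WT, against 21.0, 29.2 and 24.4 CPM in DMSO-treated WT. The NAE libraries were spread widely and the difference missed the threshold (-0.72, SE 0.25, adjusted p = 0.0625), but passed it in DESeq2 (adjusted p = 0.00615) and without NAE-treated WT replicate 1 (-1.06, adjusted p = 0.00233).

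PYL7 went the other way at 1 h in WT, with 4.12, 3.95 and 3.09 CPM under NAE 18:3, against 2.55, 1.77 and 3.16 CPM under DMSO. The groups overlapped by 1 library, and the rise was 1.49-fold (log2 fold change 0.57, SE 0.19, adjusted p = 0.0442). The call was lost on leaving out replicate 1 or 2 of any of the 4 groups at 1 h (adjusted p 0.0525 to 0.140). It was also lost after thinning to the smallest library (adjusted p = 0.18). The same held in the fit of all 24 libraries (adjusted p = 0.146) and on the compared groups alone (adjusted p = 0.093). PYL4 was level, with 149, 154 and 161 CPM under NAE 18:3 and 165, 169 and 144 CPM under DMSO (log2 fold change -0.01, 95% interval -0.15 to 0.13).

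In agb1 at 1 h, 0 of the 10 members rose and 4 fell with NAE 18:3, where 8.89% of genes rose and 4.92% fell. The 4 that fell were PYR1, PYL1, PYL6 and PYL8. PYR1 had 21.8, 22.9 and 23.6 CPM in NAE-treated agb1, against 36.1, 36.6 and 37.8 CPM in DMSO-treated agb1. The gap was wider than the spread within either group (log2 fold change -0.67, SE 0.09, adjusted p = 0.000102). PYL8 had 76.3, 73.8 and 74.5 CPM in NAE-treated agb1, against 94.0, 97.1 and 98.1 CPM in DMSO-treated agb1, again without overlap (-0.35, SE 0.07, adjusted p = 0.00546).

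PYL6 had 9.91, 13.4 and 11.6 CPM in NAE-treated agb1 at 1 h, against 25.9, 20.0 and 20.7 CPM in DMSO-treated agb1, with no overlap (log2 fold change -0.92, SE 0.25, adjusted p = 0.0310). Leaving out any one of these 6 libraries lost the call, with an adjusted p of up to 0.115. So did dropping the low-count filter (adjusted p = 0.0608). PYL1 had 19.3, 18.9 and 21.2 CPM in NAE-treated agb1, against 25.5, 22.4 and 24.4 CPM in DMSO-treated agb1 (-0.26, SE 0.08, adjusted p = 0.0439). Its groups did not overlap, but the call was lost without some single libraries. These were NAE-treated agb1 replicates 1 and 2, DMSO-treated agb1 replicates 1 and 3, and DMSO-treated WT replicates 1 and 3 (adjusted p 0.0513 to 0.175). The PYL1 call was also lost without the low-count filter (adjusted p = 0.054). Thinning to the smallest library (adjusted p = 0.198) and the fit of all 24 libraries (adjusted p = 0.0868) lost it too. PYL7 had 2.94, 2.68 and 2.49 CPM in NAE-treated agb1 and 2.75, 2.65 and 2.32 CPM in DMSO-treated agb1, which overlapped (0.09, 95% interval -0.28 to 0.46).

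PYL5, a member of the PYL4 to PYL6 subfamily, had 31.6, 42.1 and 29.7 CPM in NAE-treated agb1 at 1 h, against 49.8, 49.7 and 49.8 CPM in DMSO-treated agb1. These groups did not overlap, yet the difference missed the threshold in the fit of all groups of that time (log2 fold change -0.52, SE 0.22, adjusted p = 0.177). It passed in a fit on those groups alone (adjusted p = 0.0153) and without NAE-treated WT replicate 3 (adjusted p = 0.0182). In WT PYL5 had 53.7, 41.1 and 25.6 CPM under NAE 18:3, against 46.2, 54.4 and 50.4 CPM under DMSO, with overlap (-0.30, SE 0.22, adjusted p = 0.384). PYL4 had 132, 133 and 142 CPM in NAE-treated agb1 and 140, 137 and 153 CPM in DMSO-treated agb1 (-0.06, 95% interval -0.20 to 0.08).

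Whether the response depended on genotype at 1 h was tested as the difference of the 2 NAE effects, agb1 minus WT. Of the 10 members 0 were called in either direction by edgeR's quasi-likelihood test, with 1 member under an unadjusted p of 0.05 and 0 called by DESeq2. Over all genes 0% were higher and 0.0753% lower. The difference was -0.05 for PYR1 (log2 scale, 95% interval -0.29 to 0.20), 0.31 for PYL1 (0.09 to 0.54, adjusted p = 0.507), -0.49 for PYL7 (-1.01 to 0.04) and 0.00 for PYL8 (-0.20 to 0.21).

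The genotypes were also compared directly at 1 h. Under DMSO 0 of 10 members were higher in agb1 and 2 were lower, against 5.63% of genes higher and 5.75% lower. These were PYR1, at 36.1, 36.6 and 37.8 CPM in agb1 and 47.3, 56.7 and 48.8 CPM in WT (log2 fold change -0.45, SE 0.09, adjusted p = 0.00646), and PYL1, at 25.5, 22.4 and 24.4 CPM in agb1 and 36.6, 34.8 and 36.1 CPM in WT (-0.56, SE 0.08, adjusted p = 0.000938). Neither pair of groups overlapped. In the fit of all 24 libraries PYR1 missed the threshold (-0.46, adjusted p = 0.0512). Under NAE 18:3 0 members were higher in agb1 and 1 lower, against 4.08% and 4.89% of genes. That was PYR1, at 21.8, 22.9 and 23.6 CPM in agb1 and 35.6, 33.2 and 27.8 CPM in WT (-0.50, SE 0.09, adjusted p = 0.00332), again without overlap. The DMSO libraries serve in both the genotype and the treatment comparisons, so these are not independent of the falls given above. PYL2 had 2.70, 3.49 and 4.30 CPM in NAE-treated agb1 and 2.80, 1.64 and 2.1 CPM in NAE-treated WT (0.68, SE 0.22, adjusted p = 0.0665). It passed without NAE-treated agb1 replicate 1, NAE-treated WT replicate 1 or DMSO-treated WT replicate 2 (adjusted p 0.0347 to 0.0488). Guard cell and stomatal lineage markers summed higher in agb1 at 1 h, at 580 to 700 CPM in agb1 and 398 to 440 CPM in WT under DMSO (1 of 8 higher and 1 lower), and at 642 to 694 CPM in agb1 and 411 to 451 CPM in WT under NAE 18:3 (2 of 8 higher and 1 lower). Their part in these receptor differences was not tested.

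**Figure D2:**
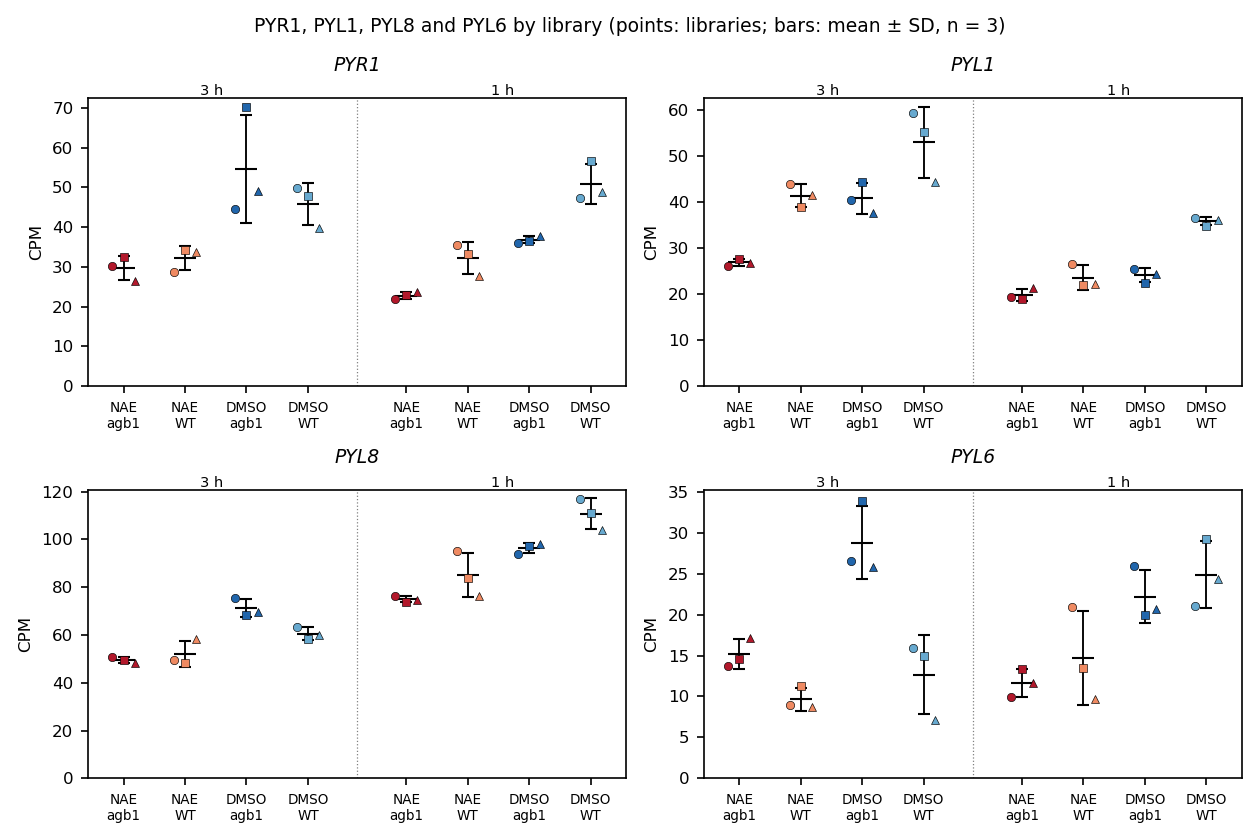
CPM of PYR1, PYL1, PYL8 and PYL6 in each library (marker shape gives the replicate number), with mean ± SD (n = 3), 3 h on the left and 1 h on the right of each panel. PYR1 is lower under NAE 18:3 than under DMSO within each genotype and time, and PYL6 is high in DMSO-treated agb1 at 3 h (25.8 to 33.9 CPM).

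After 3 h in WT, 2 of the 9 members tested rose (PYL5 and PYL7) and 2 fell (PYR1 and PYL1), where 29.4% of the 20672 genes tested rose and 29.1% fell. PYL7 had 3.29, 2.23 and 4.37 CPM in NAE-treated WT, against 1.34, 1.36 and 1.51 CPM in DMSO-treated WT. The groups did not overlap and PYL7 was 2.37-fold higher (log2 fold change 1.25, SE 0.30, adjusted p = 0.00295). PYL5 had 37.6, 41.3 and 49.3 CPM in NAE-treated WT, against 29.7, 31.8 and 31.9 CPM in DMSO-treated WT, with every NAE library above every DMSO library (0.46, SE 0.11, adjusted p = 0.00276).

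PYR1 had 28.7, 34.2 and 33.7 CPM in NAE-treated WT at 3 h, against 49.9, 47.9 and 39.7 CPM in DMSO-treated WT, with no overlap (log2 fold change -0.51, SE 0.16, adjusted p = 0.0137). The call was lost without NAE-treated WT replicate 1 (-0.44, adjusted p = 0.0586). PYL1 had 43.8, 38.9 and 41.4 CPM in NAE-treated WT, against 59.2, 55.1 and 44.4 CPM in DMSO-treated WT (-0.35, SE 0.11, adjusted p = 0.0155). Its groups did not overlap, and the call was lost without NAE-treated WT replicate 2 (-0.31, adjusted p = 0.0560). PYL8 had 49.4, 48.4 and 58.1 CPM in NAE-treated WT, against 63.4, 58.3 and 60.0 CPM in DMSO-treated WT, and just missed the threshold (-0.22, SE 0.09, adjusted p = 0.0580). It passed with RLE scaling (adjusted p = 0.0462), in DESeq2 (adjusted p = 0.0358), in the fit of all 24 libraries (adjusted p = 0.0247) and without NAE-treated WT replicate 3, DMSO-treated WT replicate 2 or any DMSO-treated agb1 replicate (adjusted p 0.0126 to 0.0431). PYL6 had 8.94, 11.3 and 8.70 CPM in NAE-treated WT, against 15.9, 15 and 7.09 CPM in DMSO-treated WT, which overlapped (-0.40, SE 0.25, adjusted p = 0.189). Without DMSO-treated WT replicate 3 it passed (-0.69, adjusted p = 0.00342).

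In agb1 at 3 h, 1 of the 9 members tested rose (PYL7) and 4 fell (PYR1, PYL1, PYL6 and PYL8), where 24.5% of genes rose and 26% fell. Leaving out any one of the 12 libraries at 3 h lost none of these 5 calls. PYL7 had 4.01, 2.18 and 3.26 CPM in NAE-treated agb1, against 0.914, 0.823 and 1.15 CPM in DMSO-treated agb1. The groups were well apart, and PYL7 was 3.27-fold higher (log2 fold change 1.71, SE 0.29, adjusted p = 0.000272). PYR1 had 30.1, 32.4 and 26.5 CPM in NAE-treated agb1, against 44.6, 70.2 and 49.2 CPM in DMSO-treated agb1, and was 1.84-fold lower (-0.88, SE 0.16, adjusted p = 0.000373). Here the groups did not overlap either, although DMSO-treated agb1 replicate 2 stood well above the other 2 libraries of its group.

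PYL1 had 26.1, 27.6 and 26.8 CPM in NAE-treated agb1 at 3 h, against 40.3, 44.4 and 37.6 CPM in DMSO-treated agb1 (log2 fold change -0.60, SE 0.11, adjusted p = 0.000519). PYL8 had 50.9, 49.4 and 48.2 CPM in NAE-treated agb1, against 75.4, 68.5 and 69.7 CPM in DMSO-treated agb1 (-0.52, SE 0.09, adjusted p = 0.000323). PYL6 had 13.7, 14.6 and 17.2 CPM in NAE-treated agb1, against 26.6, 33.9 and 25.8 CPM in DMSO-treated agb1 (-0.92, SE 0.23, adjusted p = 0.00508). In all of these genes every NAE library lay below every DMSO library. PYL4 had 416, 444 and 392 CPM in NAE-treated agb1, against 325, 362 and 316 CPM in DMSO-treated agb1, and PYL5 had 62.5, 57.0 and 57.0 CPM against 51.7, 58.2 and 63.2 CPM. The PYL4 groups did not overlap, yet the difference missed the threshold (0.32, SE 0.15, adjusted p = 0.0863). It passed without DMSO-treated WT replicate 3 (adjusted p = 0.0398) and in a fit on these 2 groups alone (adjusted p = 0.0332). The PYL5 groups overlapped (0.03, SE 0.11, adjusted p = 0.854).

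PYL2 and PYL9 were called in neither genotype at 3 h. PYL9 had 5.42, 4.67 and 5.07 CPM in NAE-treated agb1, against 5.32, 4.96 and 5.48 CPM in DMSO-treated agb1 (log2 fold change -0.06, SE 0.21). PYL2 had 6.21, 5.61 and 3.6 CPM in NAE-treated agb1, against 6.40, 7.28 and 3.76 CPM in DMSO-treated agb1 (-0.18, SE 0.30). Both overlapped there, and in WT their log2 fold changes were 0.03 (SE 0.22) for PYL9 and -0.25 (SE 0.32) for PYL2.

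Because PYL7 overlaps AT4G01030 on the opposite strand and the strand setting of the counting is not given in the sources used here, that neighbour was read beside it. AT4G01030 had 2.1, 1.78 and 3.09 CPM in NAE-treated agb1 at 3 h, against 6.70, 5.72 and 5.46 CPM in DMSO-treated agb1. In WT at 3 h it had 1.85, 0.701 and 1.77 CPM under NAE 18:3, against 4.83, 4.81 and 4.78 CPM under DMSO. It was therefore lower with NAE 18:3 in both genotypes, by -1.36 in agb1 (SE 0.27, adjusted p = 0.000844) and -1.71 in WT (SE 0.30, adjusted p = 0.000238) on the log2 scale, opposite in direction to PYL7. AT4G03845, the other overlapping locus, was at or under 0.147 CPM in every library. PYL7 rested on 33 to 188 counts per library.

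**Figure D3:**
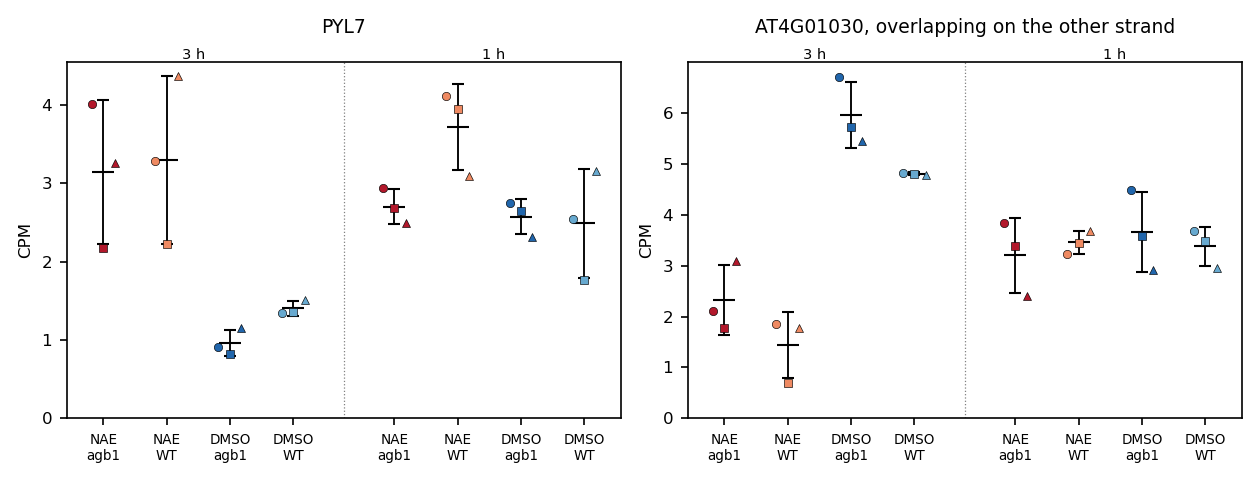
CPM of PYL7 (left panel) and of the gene overlapping it on the opposite strand, AT4G01030 (right panel), by library with mean ± SD (n = 3), 3 h left of 1 h. At 3 h PYL7 is higher under NAE 18:3 than under DMSO in both genotypes, where AT4G01030 is lower.

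The NAE effects of the genotypes were set against each other at 3 h as well. Of the 9 members 0 were called in either direction by edgeR's quasi-likelihood test or by DESeq2, with 2 members under an unadjusted p of 0.05, where 1.32% of genes were higher and 1.65% lower. The difference, agb1 minus WT, was -0.43 for PYL5 (log2 scale, 95% interval -0.74 to -0.13, adjusted p = 0.148), -0.31 for PYL8 (-0.56 to -0.05, adjusted p = 0.217), -0.37 for PYR1 (-0.81 to 0.06) and 0.46 for PYL7 (-0.36 to 1.28). PYL5, called in WT and not in agb1, is thus not shown to differ between them after adjustment over all genes.

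Under DMSO at 3 h, of 9 members 2 were higher in agb1 (PYL5 and PYL6) and 1 lower (PYL1), where 7.84% of genes were higher and 11.1% lower. PYL5 had 51.7, 58.2 and 63.2 CPM in agb1, against 29.7, 31.8 and 31.9 CPM in WT (log2 fold change 0.89, SE 0.11, adjusted p = 0.000129). PYL6 had 26.6, 33.9 and 25.8 CPM in agb1, against 15.9, 15 and 7.09 CPM in WT (1.18, SE 0.24, adjusted p = 0.00430). In both genes every agb1 library lay above every WT library. PYL4, of the same subfamily, was not called, at 325, 362 and 316 CPM in agb1 and 282, 316 and 209 CPM in WT (0.31, SE 0.15, adjusted p = 0.167). PYL1 had 40.3, 44.4 and 37.6 CPM in agb1, against 59.2, 55.1 and 44.4 CPM in WT (-0.38, SE 0.11, adjusted p = 0.0298). Its groups touched at 44.4 CPM. The call was lost without DMSO-treated agb1 replicate 3 or DMSO-treated WT replicate 1 or 2 (adjusted p 0.0573 to 0.0737). It was also lost in a fit on the compared groups alone (adjusted p = 0.1). Markers of green tissue moved with genotype in these libraries: all 7 were lower in agb1, and they summed to 13300 to 15300 CPM in agb1, against 21900 to 28000 CPM in WT. Guard cell markers summed to 1000 to 1070 CPM in agb1 and 1040 to 1370 CPM in WT, with none of 8 called. Their part in the receptor differences was not tested.

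Under NAE 18:3 at 3 h 1 of 9 members was higher in agb1 (PYL5) and 1 lower (PYL1), where 9.24% of genes were higher and 13.7% lower. PYL5 had 62.5, 57.0 and 57.0 CPM in agb1, against 37.6, 41.3 and 49.3 CPM in WT (log2 fold change 0.45, SE 0.11, adjusted p = 0.0103), and PYL1 had 26.1, 27.6 and 26.8 CPM in agb1, against 43.8, 38.9 and 41.4 CPM in WT (-0.63, SE 0.11, adjusted p = 0.00167). Neither gene's groups overlapped. PYL4 was at 416, 444 and 392 CPM in agb1 and 263, 312 and 354 CPM in WT, without overlap (0.42, SE 0.15, adjusted p = 0.0543). It passed with RLE scaling, with no low-count filter, in DESeq2, in a fit on the compared groups alone and in a fit of all 24 libraries (adjusted p 0.00821 to 0.0488). It passed too without any DMSO-treated agb1 replicate, NAE-treated WT replicate 3 or DMSO-treated WT replicate 2 or 3 (adjusted p 0.0225 to 0.0443). PYL6 was at 13.7, 14.6 and 17.2 CPM in agb1 and 8.94, 11.3 and 8.70 CPM in WT, also without overlap (0.65, SE 0.25, adjusted p = 0.0734). It passed without DMSO-treated agb1 replicate 2 or DMSO-treated WT replicate 1 or 3 (adjusted p 0.00796 to 0.0490), in DESeq2 (adjusted p = 0.0386) and in the compared groups alone (adjusted p = 0.00594). Green tissue markers summed to 15900 to 17700 CPM in agb1 and 22600 to 27600 CPM in WT (1 of 7 higher and 3 lower), and guard cell markers to 1040 to 1260 CPM in agb1 and 514 to 1000 CPM in WT (2 of 8 higher and 0 lower). Neither pair of ranges overlapped, and their part in these differences was not tested.

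**Figure D4:**
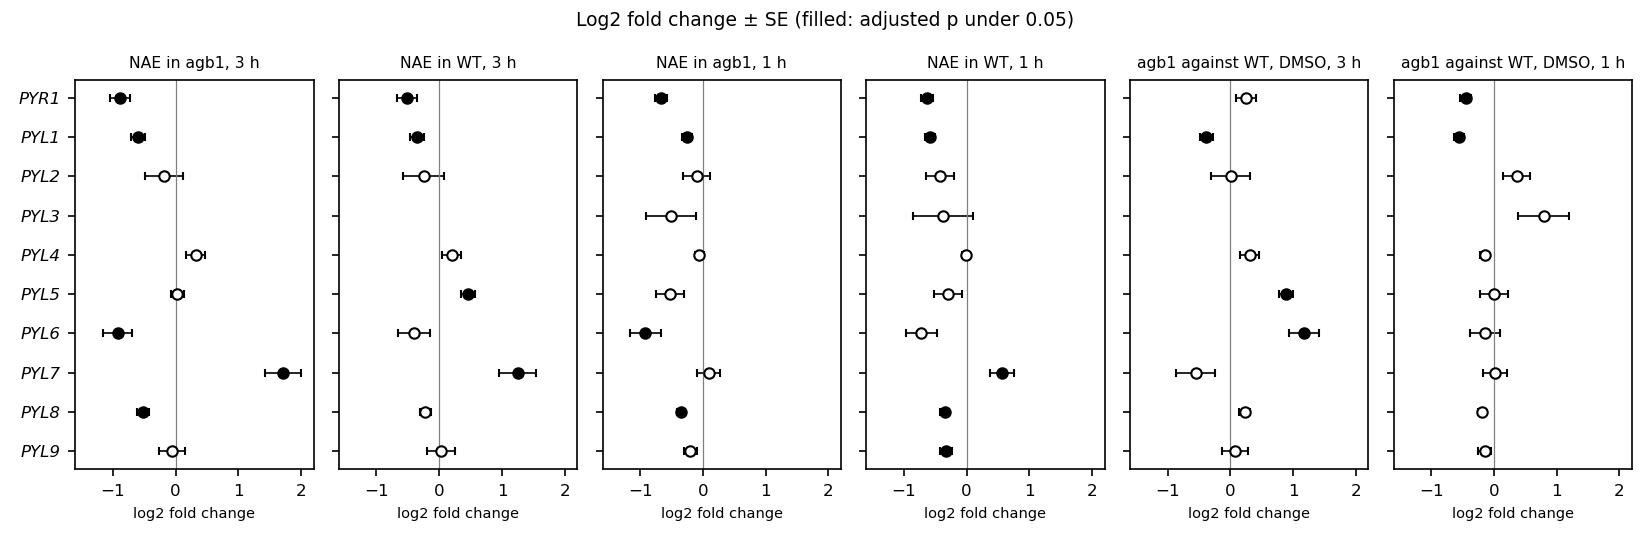
Log2 fold change ± SE of each member for NAE 18:3 over DMSO in each genotype and time, and for agb1 over WT under DMSO (filled points: adjusted p under 0.05 over all genes tested; PYL3 was not tested at 3 h). PYR1 and PYL1 are left of 0 with filled points in all 4 treatment panels, and PYL7 is farthest right at 3 h (1.71 in agb1 and 1.25 in WT).

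The receptors were also compared between the times under DMSO. Under DMSO in agb1, 3 of 10 members were higher at 3 h than at 1 h (PYR1, PYL1 and PYL4) and 3 lower (PYL7, PYL8 and PYL9), where 26.7% of 21700 genes were higher and 29.3% lower. Under DMSO in WT, 3 were higher (PYL1, PYL2 and PYL4) and 5 lower (PYL5 to PYL9), where 30.4% of genes were higher and 33.4% lower. In agb1 the counts in each direction, and in WT the count of higher members, were near these shares. PYL4 had 325, 362 and 316 CPM at 3 h in agb1, against 140, 137 and 153 CPM at 1 h (log2 fold change 1.22, SE 0.12, adjusted p = 3.6e-08). In WT it had 282, 316 and 209 CPM at 3 h, against 165, 169 and 144 CPM at 1 h (0.75, SE 0.12, adjusted p = 1.19e-05). Neither pair overlapped.

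PYL9 fell by 0.98 on the log2 scale in agb1 (SE 0.15, adjusted p = 1.58e-05) and by 1.22 in WT (SE 0.16, adjusted p = 1.04e-06). PYL8 had 75.4, 68.5 and 69.7 CPM at 3 h in agb1, against 94.0, 97.1 and 98.1 CPM at 1 h, and 63.4, 58.3 and 60.0 CPM at 3 h in WT, against 117, 111 and 104 CPM at 1 h. The WT fall was -0.87 (SE 0.08, adjusted p = 8.33e-09) and the agb1 fall -0.44 (SE 0.08, adjusted p = 9.73e-05). PYL7 was lower at 3 h by -1.42 in agb1 (SE 0.25, adjusted p = 5.77e-05) and by -0.86 in WT (SE 0.26, adjusted p = 0.00639), the WT call being lost without the 1 h DMSO-treated WT replicate 3 (-0.66, adjusted p = 0.0504). The raw counts of the time points come as separate tables, so time and any difference in handling between the tables cannot be told apart. Markers also moved with time under DMSO. Guard cell and stomatal lineage markers summed to 1000 to 1070 CPM at 3 h and 580 to 700 CPM at 1 h in agb1 (4 of 8 higher and 0 lower), and to 1040 to 1370 CPM at 3 h and 398 to 440 CPM at 1 h in WT (5 higher and 1 lower). Green tissue markers summed to 13300 to 15300 CPM at 3 h and 16000 to 19800 CPM at 1 h in agb1 (0 of 7 higher and 5 lower), and to 21900 to 28000 CPM at 3 h and 18100 to 21600 CPM at 1 h in WT (4 higher and 0 lower). Of 13 root markers 1 was higher and 5 lower at 3 h in agb1, and 2 higher and 6 lower in WT. Their part in the receptor differences was not tested.

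Each effect was also compared between the times. The NAE effect, 3 h minus 1 h, was higher for 1 member in agb1 (PYL7) and lower for 0, where 17% of genes were higher and 17.5% lower. In WT it was higher for 1 member (PYL5) and lower for 0, where 25.2% of genes were higher and 22.8% lower. PYL7 changed by 1.64 in agb1 (log2 scale, SE 0.35, adjusted p = 0.000763). Its mean in agb1 was 3.15 CPM at 3 h and 2.70 CPM at 1 h under NAE 18:3, against 0.961 and 2.57 CPM under DMSO. PYL5 changed by 0.79 in WT (SE 0.25, adjusted p = 0.0124), which was lost without NAE-treated WT replicate 3 at 3 h (0.63, adjusted p = 0.0548). Its mean in WT was 42.8 CPM at 3 h and 40.1 CPM at 1 h under NAE 18:3, against 31.1 and 50.3 CPM under DMSO. Both means thus moved more between the times under DMSO than under NAE 18:3. The agb1 effect under DMSO, 3 h minus 1 h, was higher for 4 members and lower for 0, where 8.44% of genes were higher and 7.82% lower. These were PYR1 (0.72, SE 0.19, adjusted p = 0.0127), PYL5 (0.90, SE 0.25, adjusted p = 0.0159), PYL6 (1.34, SE 0.35, adjusted p = 0.0143) and PYL8 (0.43, SE 0.11, adjusted p = 0.0130). In that comparison 0 of 7 green tissue markers were higher and 6 lower (median -1.09). Of 8 guard cell and stomatal lineage markers 1 was higher and 1 lower, and of 13 root markers 0 were higher and 0 lower. Their part in the receptor differences was not tested.

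Summed per kb over the 10 genes, the receptor level was 418 ± 20.1 CPM per kb in NAE-treated agb1 and 408 ± 31.8 in DMSO-treated agb1 at 3 h (SD, n = 3 each). In WT at 3 h it was 343 ± 41.1 CPM per kb under NAE 18:3 and 332 ± 49.9 under DMSO. At 1 h the sum was 210 ± 5.77 CPM per kb under NAE 18:3 and 259 ± 6.51 under DMSO in agb1, and 244 ± 18.6 and 299 ± 16.5 in WT. PYR1 and PYL1 to PYL3 made up 10.9 to 11.4% of the sum in NAE-treated agb1 at 3 h, against 17.6 to 20.8% in DMSO-treated agb1, and 16.0 to 18.6% in NAE-treated WT, against 22.3 to 24.5% in DMSO-treated WT. PYL4 alone gave 68.6 to 70.6% of the sum in NAE-treated agb1 at 3 h, against 56.4 to 57.7% in DMSO-treated agb1. In WT at 3 h it gave 60.3 to 63.7% under NAE 18:3, against 52.9 to 59.6% under DMSO. These ranges do not overlap within a genotype, and they are given as descriptions with no test. PYL7 to PYL9 made up 7.48 to 13.8% of the sum at 3 h, against 23.1 to 25.3% at 1 h.

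**Figure D5:**
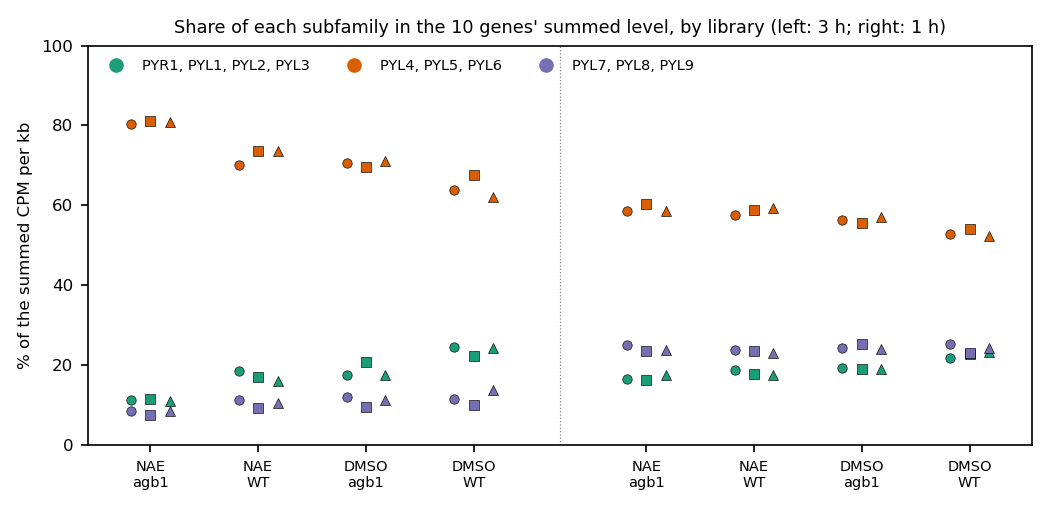
Share of each subfamily in the summed CPM per kb of the 10 receptor genes, one point per library (marker shape gives the replicate number), 3 h on the left and 1 h on the right. The PYL4 to PYL6 share is highest in NAE-treated agb1 at 3 h (80.3 to 81.1%), and the PYL7 to PYL9 share is lower at 3 h than at 1 h in each group.

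The genes that act with the receptors were read from lists, each given with the count of its tested genes. The shares of all genes to read them against were 24.5% risen and 26% fallen in agb1 and 29.4% and 29.1% in WT at 3 h. At 1 h they were 8.89% and 4.92% in agb1 and 12.4% and 8.02% in WT. Of the clade A PP2Cs, the receptors' direct targets, 4 of 7 rose and 0 fell in agb1 at 3 h (median log2 fold change 0.51, beside -0.03 over all genes). In WT at 3 h 6 of 7 rose and 1 fell (median 1.22, beside 0.00 over all genes). HAI2 rose by 5.80 (SE 0.37, adjusted p = 3.11e-08) and ABI2 by 2.23 (SE 0.19, adjusted p = 4.02e-07) in agb1. In WT HAI2 rose by 4.58 (SE 0.33, adjusted p = 6.67e-08) and ABI2 by 3.06 (SE 0.19, adjusted p = 2.32e-08). All 3 SnRK2 kinases of subclass III rose in both genotypes at 3 h, SNRK2.3 by 1.09 in agb1 (SE 0.10) and 1.03 in WT (SE 0.10). At 1 h 0 of 6 PP2Cs were called in agb1 and 1 of 6 rose in WT (HAB2, 0.22, SE 0.07, adjusted p = 0.0389).

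Of 14 tested genes of ABA synthesis and breakdown, 10 rose and 2 fell with NAE 18:3 in agb1 at 3 h (median 1.22), and 11 rose and 2 fell in WT (median 1.28), beside 24.5% risen and 26% fallen of all genes in agb1 and 29.4% and 29.1% in WT. The genes with the smallest p were CYP707A1, an ABA 8'-hydroxylase, by 1.77 in agb1 (SE 0.13) and 1.72 in WT (SE 0.13), with BGLU18, which frees ABA from its glucose ester, in agb1 (2.16, SE 0.16) and the hydroxylase CYP707A3 in WT (2.12, SE 0.15). At 1 h 3 rose and 1 fell in agb1, and 4 rose and 0 fell in WT, beside 8.89% risen and 4.92% fallen of all genes in agb1 and 12.4% and 8.02% in WT. NCED3, which cleaves carotenoids in the first committed step of synthesis, had the smallest p at 1 h (2.37, SE 0.16, in agb1 and 2.03, SE 0.16, in WT).

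The 5 tested ABA transcription factors had 3 rises and 1 fall in each genotype at 3 h. ABF4 rose by 0.95 in agb1 (SE 0.15) and 1.43 in WT (SE 0.16), and ABI5 by 1.05 in agb1 (SE 0.18) and 1.88 in WT (SE 0.19). At 1 h 2 rose in agb1 and 3 in WT, with 0 falls. Of 14 tested genes used as ABA response readouts, 1 rose and 3 fell in agb1 at 3 h (median -0.19), and 1 rose and 4 fell in WT (median -0.07). Of all genes 26% fell in agb1 and 29.1% in WT, so the falls among the readouts were near that share. RD26, a NAC factor, rose by 2.52 in agb1 (SE 0.26) and 3.06 in WT (SE 0.27), and RD22, a dehydration-responsive gene, had -2.34 in agb1 (SE 0.12) and -2.24 in WT (SE 0.12). At 1 h 3 of 15 rose and 0 fell in either genotype.

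Among 17 tested genes for receptor partners and turnover, 8 rose and 3 fell in agb1 at 3 h (median 0.20), and 11 rose and 3 fell in WT (median 0.38), beside shares over the whole table of 24.5% risen and 26% fallen in agb1, and 29.4% and 29.1% in WT. PUB23, an E3 ubiquitin ligase, rose by 2.92 in agb1 (SE 0.13, adjusted p = 1.58e-09) and 3.33 in WT (SE 0.13, adjusted p = 4.71e-10). VPS23A, a trafficking component, rose by 0.92 in agb1 (SE 0.10), and PUB22, a close relative of PUB23, by 2.05 in WT (SE 0.16). At 1 h 2 rose in agb1 and 3 in WT, with 0 falls, PUB23 again leading by p (1.64, SE 0.11, in agb1 and 2.24, SE 0.11, in WT). Over the same 4 comparisons the receptors' median log2 fold change was -0.18 in agb1 and -0.22 in WT at 3 h, and -0.30 in agb1 and -0.36 in WT at 1 h.

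Marker levels in the treatment comparisons at 3 h were as follows. Guard cell and stomatal lineage markers had 1 rise and 5 falls of 8 in each genotype, with a median of -0.82 in agb1 and -1.23 in WT. Their sums were 1040 to 1260 CPM under NAE 18:3 and 1000 to 1070 under DMSO in agb1, and 514 to 1000 CPM under NAE 18:3 and 1040 to 1370 under DMSO in WT. Root markers had 3 rises and 3 falls of 13 in agb1 (median -0.09), and 4 rises and 2 falls in WT (median 0.24). Their sums were 119 to 142 CPM under NAE 18:3 and 232 to 272 under DMSO in agb1, and 140 to 179 CPM under NAE 18:3 and 202 to 240 under DMSO in WT. Green tissue markers had 2 rises and 2 falls of 7 in agb1, and 0 rises and 3 falls in WT. Their sums in agb1 were 15900 to 17700 CPM under NAE 18:3 and 13300 to 15300 under DMSO. In WT they were 22600 to 27600 CPM under NAE 18:3 and 21900 to 28000 under DMSO. At 1 h root markers summed to 196 to 214 CPM under NAE 18:3 and 237 to 312 under DMSO in agb1, and 151 to 182 CPM under NAE 18:3 and 200 to 261 under DMSO in WT. Of the 13 root markers 3 rose and 1 fell there in each genotype, with a median of 0.27 in agb1 and 0.04 in WT. The lower sums thus did not reflect a fall of most of these genes. Of 8 guard cell and stomatal lineage markers at 1 h, 0 rose and 1 fell in agb1, and 0 rose and 2 fell in WT. Among 7 green tissue markers 1 rose and 0 fell in each genotype at 1 h. The part of tissue composition in the receptor changes was not tested.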

How the data were processed

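The deposited raw count tables, 1 per time point, hold whole-number counts per locus that the authors made from paired 75-bp reads of poly(A)-selected, stranded libraries, per the labels' protocols. STAR, DESeq2 and TAIR10 are named in the submitters' processing notes. The counting tool and its strand setting are not given in the sources used here. The deposited normalized signal tables equal these counts divided by a size factor, and were used only for that check. The members and lists were chosen with earlier results of these data known.

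Counts were tested with edgeR 4.0.16 (R 4.3.3): TMM scaling, filterByExpr (minimum count 10, total 15), robust quasi-likelihood F test on all groups of a time point, or on all 24 libraries for the time comparisons, and Benjamini-Hochberg adjustment over all genes tested, with calls at 0.05. The SE of a log2 fold change is its size over the square root of F. Levels are TMM-scaled CPM, per kb of exon in TAIR10.1 for comparisons between genes. The upstream sequence of 1 member is not reported here. Every member is named. From each list, at most the 2 called genes with the smallest p in a comparison are named. Genes with a like pattern were taken for the largest called rise and fall in WT at 3 h. Alternatives were RLE scaling, other filters, DESeq2 1.42.0, a replicate block, thinning to the smallest library, other sets of libraries and leaving out each library.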

Additional observations from a re-analysis of the deposited data

Results flagged for a closer look

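Results are listed here where the test of a difference between the time points itself passed. The NAE effect of PYL5 in WT differed between 3 h and 1 h by 0.79 on the log2 scale, and that of PYL7 in agb1 by 1.64. These were 1 of 10 members in each genotype. Of all genes 25.2% were higher and 22.8% lower in WT, and 17% and 17.5% in agb1. The PYL5 call was lost without NAE-treated WT replicate 3 at 3 h (0.63, adjusted p = 0.0548). Between the times, the means of PYL5 in WT and of PYL7 in agb1 moved more under DMSO than under NAE 18:3. The agb1 effect under DMSO differed between 3 h and 1 h by 0.72 for PYR1, 0.90 for PYL5, 1.34 for PYL6 and 0.43 for PYL8. Of all genes 8.44% were higher and 7.82% lower in that comparison. Of 7 green tissue markers 0 were higher and 6 lower there, and their part was not tested. At 1 h PYR1 was lower in agb1 than in WT under DMSO (-0.45), a call that missed the threshold in the fit of all 24 libraries (-0.46, adjusted p = 0.0512). At 3 h PYR1 was not called (0.25, adjusted p = 0.291). In the fits of each time point PYL8 was not called under DMSO (0.23 at 3 h, adjusted p = 0.0991, and -0.19 at 1 h, adjusted p = 0.104), but at 3 h it passed in the fit of all 24 libraries (0.23, adjusted p = 0.0353).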

How the results depend on the processing

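Over 3407 recomputed member results, 3297 stayed on their side of the threshold, 45 lost the call and 65 gained it. No called value changed sign, while some values not called lay on either side of 0, such as PYL7 for NAE 18:3 in agb1 at 1 h (-0.17 to 0.16). The number of members called for NAE 18:3 in WT at 1 h was 5, and 3 in a fit on the compared groups alone or on all 24 libraries, with 3 to 5 on leaving out each library. In agb1 at 1 h it was 4, and 2 without the low-count filter (2 to 5 on leaving out each library). For agb1 against WT under NAE 18:3 it was 1 at 1 h and 2 in DESeq2 (1 to 2), and 2 at 3 h and 4 in DESeq2 or in the compared groups alone (2 to 4). Under DMSO at 1 h it was 2, and 1 in the fit of all 24 libraries. The change of the NAE effect between the times called 1 member in WT (0 to 3), and 1 in agb1 (1 to 3), with 2 after thinning to the smallest library and 4 in the compared groups alone. The cause was not tested.

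Over all genes, the difference of the NAE effects at 1 h was called 0 times higher and 16 lower by edgeR, and 14 higher and 60 lower by DESeq2. At 3 h these were 272 and 341 by edgeR, and 673 and 687 by DESeq2. In the fit of all 24 libraries agb1 against WT under DMSO at 1 h gave 355 higher and 539 lower, beside 1196 and 1223.

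Deviations of same-numbered libraries from their group means had a median correlation of -0.0464 at 3 h and 0.0136 at 1 h. It was above 0.1 in 3 and 4 of 18 pairs, and in 9 and 6 of 36 differently numbered pairs. The highest value was 0.327 at 3 h and 0.204 at 1 h for the same number, against 0.161 and 0.153 for different numbers. The main fits took no pairing by replicate number, and whether some libraries share a batch was not tested. With a replicate block the call of PYL7 in WT at 1 h was lost (0.57, adjusted p = 0.0611), leaving 4 members called, and no other member call changed.

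PYL3, at 1 to 26 counts per library, is limited by depth. It was called only for 3 h against 1 h under DMSO in agb1, and only on leaving out 1 library there (3 cases, adjusted p 0.0163 to 0.0443).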

Other observations

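The remaining genes of the family, PYL10 to PYL13, were at or near 0 in these seedlings. PYL10 ran from 0 to 0.111 CPM over the 24 libraries, PYL12 from 0 to 0.375 CPM and PYL13 from 0 to 0.255 CPM. PYL11 ran from 0.0537 to 0.977 CPM and was the only 1 of these 4 genes to pass the filter. It had 0.376, 0.601 and 0.613 CPM in NAE-treated agb1 at 3 h, against 0.0703, 0.402 and 0.149 CPM in DMSO-treated agb1, and the groups overlapped (log2 fold change 1.30, SE 0.63, adjusted p = 0.0997).

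Over the 8 group means of log2 CPM, the genes whose pattern was most like that of PYL7 among 15527 genes were AT1G19540 (Pearson r 0.979), UGE2 (AT4G23920, 0.976), a UDP-glucose epimerase, and GORK (AT5G37500, 0.971), a potassium channel. For PYR1, among 15526 genes, they were AT3G58090 (0.968), CYP735A2 (AT1G67110, 0.958), a cytokinin hydroxylase, and AT3G57000 (0.957). These values describe 8 points that share libraries and scaling.

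Pathway genes were also counted between the genotypes under DMSO at 3 h, where 7.84% of all genes tested were higher in agb1 and 11.1% lower. Of the 14 tested genes of synthesis and breakdown 1 was higher and 3 lower in agb1, BGLU18 by -1.30 (SE 0.16, adjusted p = 0.000107) and CYP707A1 by -0.99 (SE 0.13, adjusted p = 0.000171). Of 14 response genes 0 were higher and 4 lower, RD22 by -0.53 (SE 0.12, adjusted p = 0.00667) and KIN2 by -0.92 (SE 0.25, adjusted p = 0.0217). Of 7 PP2Cs 0 were higher and 1 was lower (HAI2, -2.13, SE 0.45, adjusted p = 0.00533). Of 5 ABA transcription factors 1 was higher and 0 lower. Of 17 genes for partners and turnover 2 were higher and 3 lower, and of 3 SnRK2 kinases 0 were called. At 1 h under DMSO 2 of 6 PP2Cs were higher in agb1 and 0 lower, beside 5.63% and 5.75% of all genes. Of 14 genes of synthesis and breakdown 1 was higher and 1 lower there, as among 15 response genes.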
